A study of Mus musculus with 12 samples.

Results

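The immunoglobulin heavy chain variable segments described here are the 91 genes of the Ighv series whose read counts, summed over 12 libraries, reached 50 or more. They were chosen by this summed count and by name alone. The count table held 185 Ighv symbols among 55401 genes, and the members carried 90270 of the 90932 Ighv counts (99.3%). Of the 91 members 89 were annotated as functional V genes and 2 as pseudogenes, Ighv1-2 and Ighv4-2. The 94 symbols below the limit comprised 24 V genes, 68 pseudogenes and 2 genes of the annotated class LV, and 55 of them had no count in any library. The members of lowest total were Ighv3-5 with 67 counts, Ighv2-4 with 69 and Ighv3-3 with 76, and the symbols just outside were Ighv3-2 with 49, Ighv8-6 with 46 and Ighv1-31 with 43. Because summed counts chose the members and most of those counts came from uninjected mice, counts of members that were lower in the other groups are given as description.

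Bulk RNA sequencing was performed on cells washed out of the belly cavity of C57BL/6J mice with 8 mL phosphate-buffered saline. In the ID8 group (4 libraries) the mice had received, by intraperitoneal injection 7 days earlier, the ovarian cancer line labelled ID8 (defb29/Vegf-a). In the ID8-FSHR group (4 libraries) they had received ID8 cells that overexpress the follicle-stimulating hormone receptor, and the 4 libraries of the uninjected group came from mice without an injection. The treatment protocol gives 5000000 injected cells and the series description 4000000. No group received an injection without tumour cells, so the injection and the tumour cannot be told apart. Libraries are named here by group and replicate number. The series description calls them biological replicates without saying that each came from its own animal, so the p-values below measure the spread between these libraries.

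Each heavy chain gene is assembled during B cell development by joining 1 of many V segments to a D and a J segment, and the V segment encodes most of the antigen-contacting part of the chain. A B cell and its progeny keep the segment they joined, so the segment mix in RNA reflects which B cell clones are present and how much heavy chain message each makes. The peritoneal cavity is the main home of B-1 cells, self-renewing innate-like B cells whose antibodies draw on a restricted set of segments. Ighv11-2 and Ighv12-3 are the best-known of these: paired with the light chain segments Igkv14-126 and Igkv4-91 respectively, they form antibodies that bind phosphatidylcholine, a membrane lipid exposed on aged red cells and on some bacteria.

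The table assigned 47419608 to 64333677 counts per library, and Ighv counts made up 1384 to 2999 of these in the 8 tumour libraries and 17354 to 19563 in the 4 uninjected ones. A list of 15 B cell identity genes had a summed level of 391 to 692 CPM (counts scaled to the same total in every library) in tumour libraries and 3333 to 4381 in uninjected ones, while the 6 genes of the V(D)J recombination and B cell precursor list summed to 0.0296 to 0.727 CPM in all libraries. Markers of tumour and mesothelium summed to 959 to 3451 CPM in tumour libraries against 18.6 to 20.02 in uninjected ones. ID8-FSHR replicate 2 stood apart from the other tumour libraries: it had the lowest of those sums, and over log2 CPM it correlated with uninjected libraries at a mean of 0.914, the other tumour libraries at 0.868 to 0.880. Group values without it, added after seeing the data, are given beside the main results below. Mouse Fshr had 0, 0, 2 and 7 counts in the ID8-FSHR libraries and 0, 0, 2 and 0 in the ID8 libraries, and since the labels do not name the species of the introduced receptor this gene does not check the labels.

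Heavy chain V transcripts were far scarcer in lavage from tumour-bearing mice than in lavage from uninjected mice. The summed Ighv level was 346, 320, 395 and 396 CPM in the uninjected libraries. It was 44.4, 32.5, 52.0 and 45.8 CPM in the ID8 libraries and 41.0, 49.8, 39.6 and 25.3 CPM in the ID8-FSHR libraries. No tumour library came near the uninjected range. The group means were 364 ± 37.8 CPM (SD, n = 4) for uninjected, 43.7 ± 8.17 (SD, n = 4) for ID8 and 38.9 ± 10.2 (SD, n = 4) for ID8-FSHR, that is 8.34-fold and 9.36-fold below uninjected, and 10.3-fold for ID8-FSHR without replicate 2. As a plain percentage of all counts, the Ighv total was 0.0333% in uninjected, 0.00457% in ID8 and 0.00406% in ID8-FSHR (group means). Both measures are relative to the RNA of all recovered cells. Fewer B cells, more cells of other kinds and less message per B cell therefore cannot be told apart in these bulk samples.

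Measured against Ighm or Cd79b, the Ighv total overlapped between groups. Per 100 counts of Ighm, the constant region of IgM, the libraries held 9.77 ± 0.405 Ighv counts in uninjected (SD, n = 4), 9.41 ± 0.652 in ID8 (SD, n = 4) and 9.09 ± 0.917 in ID8-FSHR (SD, n = 4), and the 3 ranges overlapped (8.94 ± 1.05 for ID8-FSHR without replicate 2, SD, n = 3). Per 100 counts of Cd79b, which relays the signal of the B cell receptor, the values were 84.5 ± 5.92, 76.6 ± 3.61 and 76.4 ± 8.02, again with overlap. Against the summed counts of the 15 B cell identity genes the ratio was lower in every tumour library, at 6.45 to 8.21 per 100 compared with 8.87 to 10.4 in uninjected libraries. In the plot of Ighv level and ratios the groups are apart on the CPM scale and overlap in the ratios to Ighm and Cd79b, while the ratio to the B cell identity genes, which is not plotted, stayed apart.

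**Figure D1:**
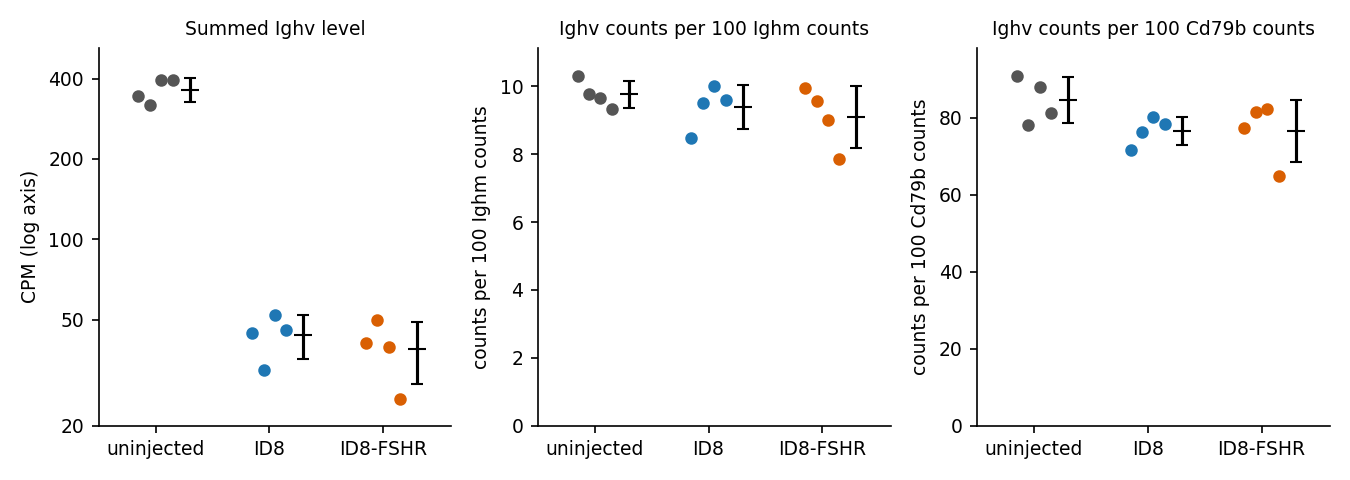
Summed Ighv level in CPM on a log axis (left), Ighv counts per 100 Ighm counts (middle) and per 100 Cd79b counts (right). Each point is 1 of 4 libraries of a group and the bar beside it is the mean with its SD. The tumour libraries lie between 25.3 and 52.0 CPM and the uninjected ones between 320 and 396, while the ratios to Ighm and Cd79b overlap between groups.

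On the CPM scale, 84 members passed the filter on low counts and could be tested, and the other 7 (Ighv2-4, Ighv4-2, Ighv3-3, Ighv3-5, Ighv15-2, Ighv1-67 and Ighv1-84) could not. When the 8 tumour libraries alone were filtered, 53 members passed, so many of the 84 were tested because of their level in uninjected lavage. Between ID8 and uninjected, 78 of 84 were lower and 0 higher by edgeR's quasi-likelihood test at an adjusted p under 0.05, where 31.4% of all 16915 genes tested were lower and 32.7% higher. Their median log2 fold change was -2.76 (range -4.77 to -0.46), and that of all genes tested -0.03. Between ID8-FSHR and uninjected, 82 of 84 were lower and 0 higher, against 30.6% of all genes lower and 33.9% higher, with a median of -2.87 (range -5.46 to -1.52) and a median over all genes of 0.00. Values of the 4 ID8 libraries lay below all 4 uninjected ones for 78 of the 84 (30.7% of all genes), and those of the 4 ID8-FSHR libraries for 80 (27.4%). Both comparisons use the same uninjected libraries. Without ID8-FSHR replicate 2, where 90 members passed the filter, 84 of the 90 were lower in ID8-FSHR by edgeR.

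Ighv11-2 was the most abundant segment by a wide margin. It had 21790 counts, followed by Ighv12-3 with 4580 and Ighv9-3 with 4365, and the same 3 segments led per kilobase of exon. The gene lies on chromosome 12 at chr12:114048241-114048812 (GRCm38, minus strand), 618 kb from the Ighj cluster, and has 2 exons. Its only close relative is Ighv11-1, which lies at chr12:113981879-113982341 on the same strand. The 2 segments are shown because they differ in 4 of the 290 bases at the end of their GENCODE M21 transcripts (the V-coding part, GRCm38). Within those bases, reads could be told apart only where they cross the differing positions, which are in capitals. The rest of the transcripts was not compared.
Ighv11-2: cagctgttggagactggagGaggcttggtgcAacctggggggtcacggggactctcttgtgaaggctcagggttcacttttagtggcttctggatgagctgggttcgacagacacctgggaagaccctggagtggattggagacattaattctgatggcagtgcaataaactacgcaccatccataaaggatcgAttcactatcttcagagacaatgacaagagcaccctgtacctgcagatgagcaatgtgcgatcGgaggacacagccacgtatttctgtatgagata
Ighv11-1: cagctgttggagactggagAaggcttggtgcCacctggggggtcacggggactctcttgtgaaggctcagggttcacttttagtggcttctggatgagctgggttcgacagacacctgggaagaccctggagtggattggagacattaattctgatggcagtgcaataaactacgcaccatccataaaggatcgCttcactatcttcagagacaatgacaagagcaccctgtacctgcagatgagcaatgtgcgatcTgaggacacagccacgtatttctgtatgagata
Ighv11-1 received 24 counts over all 12 libraries. How reads that match both were handled is not stated in the sources, and the Ighv11 family as a whole made up 26.8% of Ighv counts in uninjected, 13.1% in ID8 and 14.4% in ID8-FSHR, much as Ighv11-2 alone did below.

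The level of Ighv11-2 was 112, 75.7, 86.8 and 115 CPM in the uninjected libraries. It was 5.12, 6.27, 4.32 and 5.86 CPM in the ID8 libraries and 8.20, 6.26, 3.10 and 4.31 CPM in the ID8-FSHR libraries. The highest tumour library was thus far below the lowest uninjected one. The log2 fold change was -4.17 for ID8 (SE 0.27, edgeR adjusted p = 3.82e-08) and -4.15 for ID8-FSHR (SE 0.27, edgeR adjusted p = 4.17e-08), or 18.0-fold and 17.7-fold lower. That is a deeper fall than the 8.04-fold and 8.83-fold of Ighm.

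As a share of all Ighv counts, Ighv11-2 made up 32.4%, 23.6%, 22.0% and 29.0% in the uninjected libraries. In the ID8 libraries it made up 11.5%, 19.3%, 8.31% and 12.8%, and in the ID8-FSHR libraries 20.02%, 12.6%, 7.84% and 17.1%. All 8 tumour libraries lay below all 4 uninjected ones, although the highest, ID8-FSHR replicate 1, came within 2 percentage points of the lowest. The mean share went from 26.8 ± 4.82% (SD, n = 4) to 13.0 ± 4.62% (SD, n = 4) in ID8 and 14.4 ± 5.32% (SD, n = 4) in ID8-FSHR. With the Ighv total of each library in place of the library size, the log2 fold change was -1.05 in ID8 (SE 0.29, edgeR adjusted p = 0.000674) and -0.90 in ID8-FSHR (SE 0.29, edgeR adjusted p = 0.00315), and -0.84 without ID8-FSHR replicate 2 (edgeR adjusted p = 0.00888). Over the other settings tried, the value for ID8 ranged from -1.34 to -0.88 and that for ID8-FSHR from -1.17 to -0.69. When only Ighv genes were set against the Ighv total, an unplanned fit, the edgeR adjusted p was larger. It was 0.00463 in ID8 and 0.0120 in ID8-FSHR. Between ID8-FSHR and ID8 the share did not pass the test (log2 difference 0.15, SE 0.29, edgeR adjusted p = 0.854).

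The light chain segment that pairs with Ighv11-2 followed it. Igkv14-126, on chromosome 6, made up 31.9%, 18.6%, 18.7% and 24.4% of all Igkv counts in the uninjected libraries. It made up 9.004%, 13.3%, 5.10% and 13.6% in the ID8 libraries and 16.3%, 11.7%, 7.86% and 12.9% in the ID8-FSHR libraries, without overlap, and the mean of the ID8-FSHR libraries other than replicate 2 was 12.4 ± 4.25% (SD, n = 3). Uninjected replicate 1 and ID8-FSHR replicate 1 were the richest of their groups in both segments, while in ID8 replicate 2 had most Ighv11-2 and replicate 4 most Igkv14-126. Its level fell from 104 ± 23.0 CPM to 6.13 ± 1.87 in ID8 and 6.30 ± 1.92 in ID8-FSHR (SD, n = 4 each; edgeR adjusted p = 5.61e-08 and 6.19e-08).

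Ighv12-3, the other phosphatidylcholine-binding segment, lies at chr12:114366521-114366954 (GRCm38, minus strand), 937 kb from the Ighj cluster. Its germline sequence (GENCODE M21) is shown with capitals for the bases after the codon of the conserved cysteine, the germline contribution to the antigen-binding loop formed at the V-D-J junction.
Ighv12-3: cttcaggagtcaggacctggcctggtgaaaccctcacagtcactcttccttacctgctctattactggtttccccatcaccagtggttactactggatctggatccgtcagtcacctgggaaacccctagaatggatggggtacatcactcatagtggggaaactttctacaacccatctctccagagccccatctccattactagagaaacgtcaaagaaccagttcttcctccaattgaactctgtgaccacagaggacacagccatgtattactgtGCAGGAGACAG
It made up 4.53%, 8.26%, 5.80% and 3.67% of Ighv counts in the uninjected libraries. The ID8 libraries had 2.13%, 5.03%, 3.87% and 1.83%, and the ID8-FSHR libraries 2.35%, 3.28%, 2.68% and 4.34%. The groups overlapped. The log2 difference in share was -0.80 in ID8 (SE 0.36, edgeR adjusted p = 0.0308) and -0.82 in ID8-FSHR (SE 0.36, edgeR adjusted p = 0.0273). Without uninjected replicate 2, the highest library, these were -0.55 (edgeR adjusted p = 0.172) and -0.57 (edgeR adjusted p = 0.157). The call for ID8 also ended without ID8 replicate 1, ID8 replicate 4 or uninjected replicate 3 (edgeR adjusted p = 0.118, 0.138 and 0.0533), and that for ID8-FSHR without ID8-FSHR replicate 1 or 3 (edgeR adjusted p = 0.0780 and 0.0687). On the CPM scale Ighv12-3 fell by 3.88 on the log2 scale in ID8 and by 4.07 in ID8-FSHR (SE 0.31 and 0.32, edgeR adjusted p = 2.47e-07 and 1.88e-07). Its light chain partner Igkv4-91 made up 5.41% of Igkv counts in uninjected, 3.49% in ID8 and 3.01% in ID8-FSHR (group means), with no overlap between tumour and uninjected libraries.

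For the other abundant segments no difference in share from uninjected passed the test, while their level fell, as the plot of the 12 leading segments shows. Ighv9-3, next in abundance, made up 4.87 ± 0.642% of Ighv counts in uninjected (SD, n = 4), 5.00 ± 0.314% in ID8 (SD, n = 4) and 4.32 ± 1.37% in ID8-FSHR (SD, n = 4). Ighv6-3 made up 2.78 ± 0.214%, 3.39 ± 0.763% and 3.66 ± 0.562% (SD, n = 4 each), and Ighv8-8 1.71 ± 0.132%, 2.202 ± 0.441% and 2.27 ± 0.572% (SD, n = 4 each), both with overlapping libraries. Without ID8-FSHR replicate 2 the other ID8-FSHR libraries lay above uninjected for both, with 3.92 ± 0.263% for Ighv6-3 and 2.54 ± 0.260% for Ighv8-8 (SD, n = 3 each). No difference in share was called either for Ighv3-6, Ighv1-55, Ighv10-1, Ighv1-26, Ighv7-3, Ighv6-6 and Ighv5-17. Ighv5-17 came nearest, with 1.55 ± 0.193% in uninjected and 2.52 ± 0.722% in ID8 (SD, n = 4 each), no overlap, a log2 difference of 0.69 (SE 0.40) and an edgeR adjusted p of 0.0904. It was called when only the ID8 and uninjected groups were fitted, and Ighv1-55 was called in ID8-FSHR without uninjected replicate 4. All 10 were lower on the CPM scale in both comparisons. Their log2 fold changes ran from -3.39 (Ighv7-3) to -2.41 (Ighv5-17) in ID8 and from -3.45 (Ighv9-3) to -2.53 (Ighv7-3) in ID8-FSHR.

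**Figure D2:**
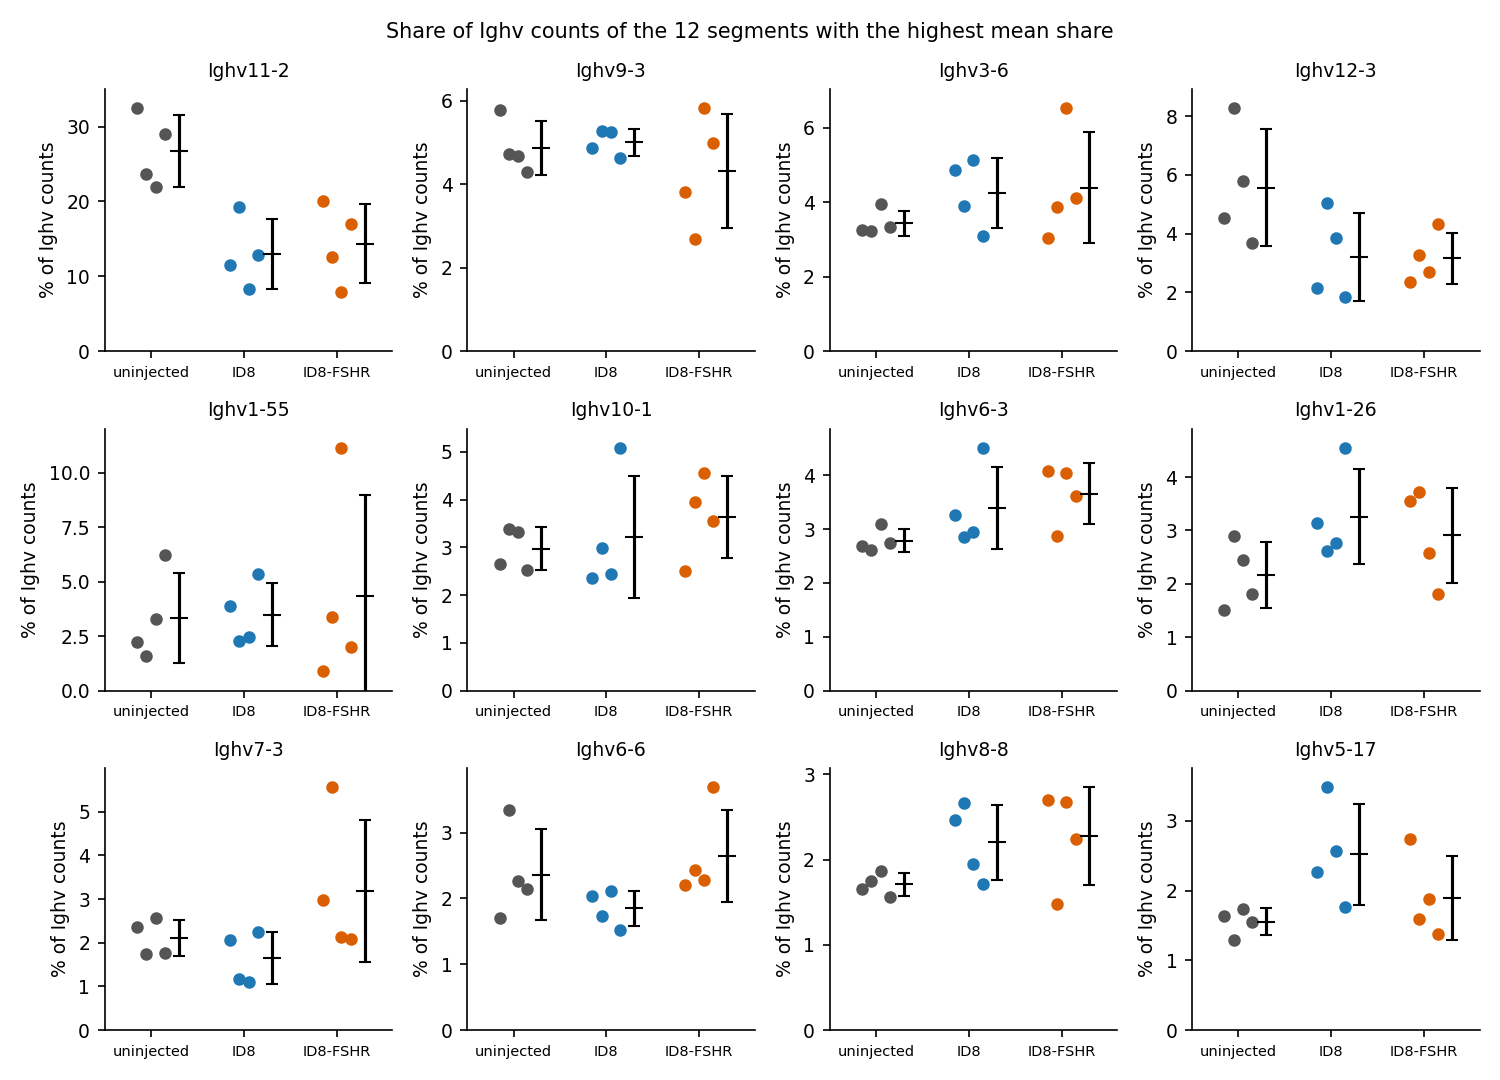
Share of all Ighv counts in each library for the 12 segments of highest mean share, 1 panel per segment with its own axis from 0. Points are libraries and the bar is the mean with its SD over 4 libraries, cut at 0 where it would go below. Ighv11-2 separates the uninjected libraries (22.0% to 32.4%) from the tumour libraries (7.84% to 20.02%), and in the other panels each tumour group overlaps uninjected, except Ighv5-17 in ID8.

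Segments known from other antibody responses were minor here. Ighv7-1, the segment of the natural antibodies to phosphorylcholine, made up 0.585 ± 0.151% of Ighv counts in uninjected, 1.01 ± 0.713% in ID8 and 0.854 ± 0.275% in ID8-FSHR (SD, n = 4 each). Ighv1-72, which dominates the response of C57BL/6 mice to the hapten NP, made up 0.507 ± 0.159%, 0.408 ± 0.213% and 0.680 ± 0.251% (SD, n = 4 each). All 3 groups overlapped for both. Ighv1-72 differs from Ighv1-62-3 by 2 of 290 bases, the closest pair found, so its 466 counts may include reads of the other gene or lack some of its own. Ighv5-6 overlapped as well, with 0.837 ± 0.104%, 0.838 ± 0.562% and 1.03 ± 0.227% (SD, n = 4 each). Ighv5-2, a segment close to the D cluster that is favoured in early B cell development, had 32, 45, 42 and 30 counts in the uninjected libraries. It had 3, 0, 3 and 2 in the ID8 libraries and 11, 8, 4 and 2 in the ID8-FSHR libraries. Its share was lower in every ID8 library than in any uninjected one and did not pass the test (log2 difference -1.36, SE 0.87, edgeR adjusted p = 0.123).

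Across all tested members, the mix of segments changed far less than their level. Relative to the Ighv total, 9 of 84 differed between ID8 and uninjected, where 95.5% of all genes did, since almost every gene other than those of B cells rises against that total. Ighv11-2 and Ighv12-3 were lower (0.136% of all genes were), and Ighv1-52, Ighv14-4, Ighv2-9-1, Ighv1-59, Ighv7-4, Ighv1-80 and Ighv1-36 were higher (95.3% of all genes were). Between ID8-FSHR and uninjected, 6 of 84 differed (95.6% of all genes): Ighv11-2, Ighv12-3 and the pseudogene Ighv1-2 were lower (0.183% of all genes were) and Ighv1-74, Ighv14-4 and Ighv1-75 higher (95.4% of all genes were). With so many genes called, adjustment barely raises a p on this scale. At an adjusted p under 0.001, a limit added after seeing the data, the counts were 1 (Ighv11-2 in ID8) and 0. With the Ighv total used for Ighv genes only, Ighv11-2 in ID8 was above that limit (edgeR adjusted p = 0.00463). The median log2 difference of the 84 was 0.28 in ID8 and 0.30 in ID8-FSHR, the counterpart of the smaller share of Ighv11-2. Libraries did not overlap with uninjected for 4 members below and 5 above in ID8 (0.183% and 92.5% of all genes), and for 1 below and 1 above in ID8-FSHR (0.195% and 92.3%).

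**Figure D3:**
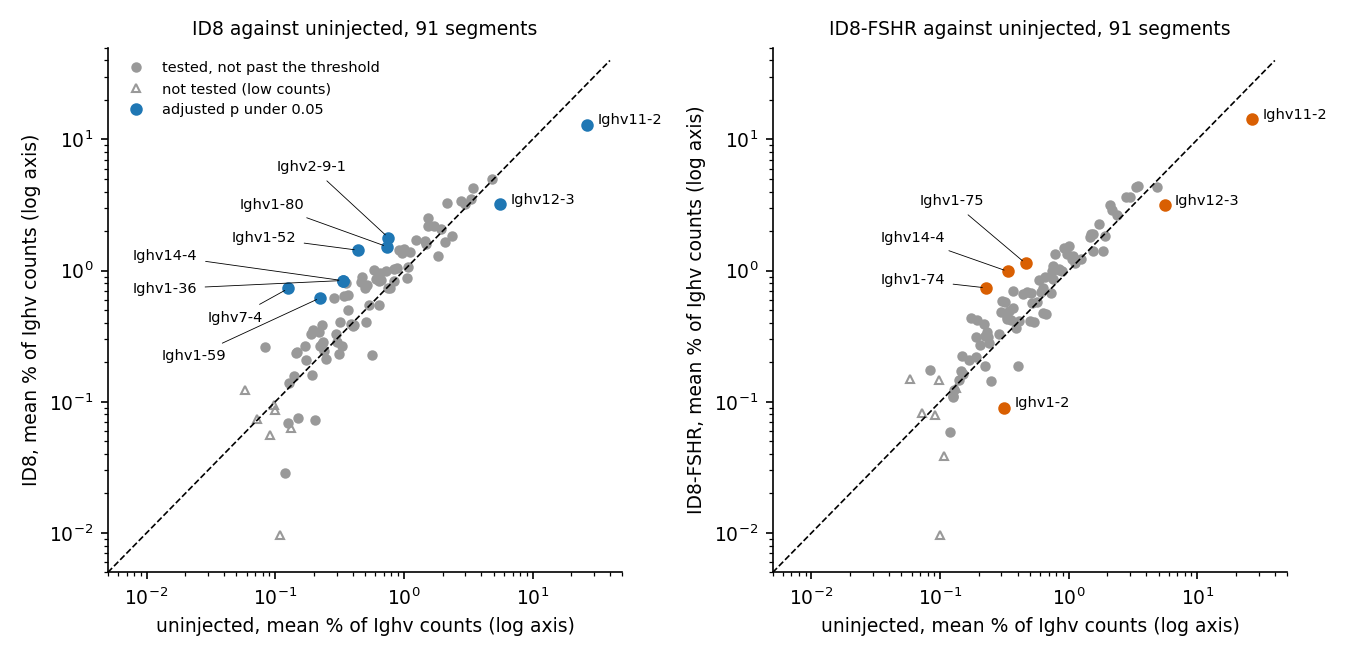
Mean share of Ighv counts of each of the 91 segments in ID8 (left) or ID8-FSHR (right) against its mean share in uninjected, both axes logarithmic, with the line of equality. Coloured points passed an edgeR adjusted p under 0.05 relative to the Ighv total and open triangles were not tested. Most segments lie near or just above the line, and Ighv11-2 and Ighv12-3 are the abundant segments below it.

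Of the segments called higher in share, 4 had all libraries of a tumour group above all uninjected ones. Ighv14-4 made up 0.325%, 0.375%, 0.276% and 0.374% of Ighv counts in uninjected and 0.867%, 0.497%, 1.15% and 0.840% in ID8. The ID8-FSHR libraries had 0.578%, 0.839%, 0.354% and 2.17%. Replicate 3 of that group lay within the uninjected range and replicate 4 far above it. Its log2 difference was 1.32 in ID8 (SE 0.57, edgeR adjusted p = 0.0243) and 1.501 in ID8-FSHR (SE 0.58, edgeR adjusted p = 0.0119). Without ID8-FSHR replicate 4 the latter was 0.82 (edgeR adjusted p = 0.163), and without ID8 replicate 3 the former was 1.14 (edgeR adjusted p = 0.0783). The ID8 call also ended without uninjected replicate 1 or 3 (edgeR adjusted p = 0.0511 and 0.0602).

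Ighv1-80 rose from 0.746 ± 0.223% to 1.52 ± 0.495% in ID8 (SD, n = 4 each), a log2 difference of 1.02 (SE 0.47, edgeR adjusted p = 0.0352). Ighv1-59 went from 0.225 ± 0.0850% to 0.621 ± 0.142% (SD, n = 4 each; log2 difference 1.46, SE 0.66, edgeR adjusted p = 0.0319). Without ID8 replicate 3 neither passed (edgeR adjusted p = 0.154 and 0.0945). The Ighv1-80 call also ended without uninjected replicate 1 or 4 (edgeR adjusted p = 0.124 and 0.0846). That of Ighv1-59 ended without ID8 replicate 1 or 2 or uninjected replicate 2, 3 or 4 (edgeR adjusted p from 0.0511 to 0.120). All 3 ID8 calls, of Ighv14-4, Ighv1-80 and Ighv1-59, also ended when the Ighv total left out its 3 segments of highest mean share (log2 differences 1.04, 0.78 and 1.19, edgeR adjusted p = 0.0894, 0.138 and 0.0885), Ighv11-2 among them, and with a median of ratios over the members (edgeR adjusted p = 0.0916, 0.135 and 0.0853). That of Ighv1-80 ended with no filter on low counts as well (edgeR adjusted p = 0.0524). The members behind these values are small: Ighv1-59 had 10 to 21 counts per ID8 library. Ighv1-74 had shares of 1.16%, 0.3995%, 0.961% and 0.434% in ID8-FSHR, all above the 0.159% to 0.368% of uninjected (log2 difference 1.69, SE 0.64, edgeR adjusted p = 0.0110). Without ID8-FSHR replicate 1 its log2 difference was 1.38 (edgeR adjusted p = 0.0760).

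Several of the remaining calls rested on 1 library. The following members were picked after their values were seen, as segments whose highest library in a group held at least 3 times the share of the next one with 20 or more counts. In ID8 replicate 3, Ighv2-9-1 made up 5.25% of Ighv counts (137 counts, Wilson 95% interval 4.45% to 6.17%) and the other 3 ID8 libraries had 0.8003% or less. In the same library Ighv1-52 made up 3.41% (89 counts, interval 2.78% to 4.17%), against 0.993% in the next. In ID8 replicate 4, Ighv7-4 made up 2.52% (66 counts, interval 1.99% to 3.19%), and its next ID8 library had 0.306%. These 3 segments are among the 7 called higher in ID8. Without ID8 replicate 3, neither Ighv2-9-1 nor Ighv1-52 was called, nor were Ighv1-36, Ighv1-59, Ighv1-80 and Ighv14-4. Without ID8 replicate 4, Ighv7-4 was not called. In ID8-FSHR replicate 2, the library that stood apart, Ighv1-75 made up 3.24% (81 counts, interval 2.61% to 4.00%) against 0.556% in the next, and without that library, or without uninjected replicate 1, its call ended. Without ID8-FSHR replicate 2 the calls of Ighv2-9-1 and Ighv7-4 in ID8 ended too. The call of the pseudogene Ighv1-2 as lower in ID8-FSHR ended without uninjected replicate 1, where it had 0.776% of Ighv counts, and also without ID8-FSHR replicate 1, 2 or 3 or ID8 replicate 2. With the Ighv total less its 3 leading segments, the segments still called higher were Ighv1-52 and Ighv7-4 in ID8 and Ighv1-74 and Ighv14-4 in ID8-FSHR.

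Ighv1-55 in ID8-FSHR replicate 3 was the largest such case. There it made up 11.1% of Ighv counts (220 counts, interval 9.82% to 12.6%), ahead of Ighv11-2 with 7.84%, and it was the only library of the 12 in which another segment outranked Ighv11-2. The other ID8-FSHR libraries had 0.887%, 3.36% and 2.02%. The segment also varied within the other groups, from 1.59% to 6.21% in uninjected and from 2.30% to 5.35% in ID8. The remaining cases were Ighv1-85 in ID8 replicate 1 (1.03%), Ighv9-1 in ID8-FSHR replicate 3 (1.11%) and Ighv1-2 in uninjected replicate 1. By group, 4 cases were in ID8, 3 in ID8-FSHR and 1 in uninjected, and tumour libraries had far fewer Ighv counts, whose part in this difference was not tested. The intervals cover counting error only, since reads of 1 cell or 1 molecule are not independent.

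The germline sequences of Ighv1-55 and of the pair Ighv1-52 and Ighv1-61 (GENCODE M21, GRCm38) are shown for the large single-library shares. Ighv1-55 lies at chr12:115208095-115208591, and its capitals mark the bases after the conserved cysteine codon.
Ighv1-55: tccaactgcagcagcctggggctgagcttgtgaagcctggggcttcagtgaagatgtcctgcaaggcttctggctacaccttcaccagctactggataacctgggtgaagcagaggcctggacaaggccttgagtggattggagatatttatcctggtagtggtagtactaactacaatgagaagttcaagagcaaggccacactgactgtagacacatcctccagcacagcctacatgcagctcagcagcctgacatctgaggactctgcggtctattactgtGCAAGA
Ighv1-52 lies at chr12:115145487-115145919 and Ighv1-61 at chr12:115359140-115359572. They differ in 4 of 290 bases (capitals), so the counts of the 2 segments cannot be taken as fully separate.
Ighv1-52: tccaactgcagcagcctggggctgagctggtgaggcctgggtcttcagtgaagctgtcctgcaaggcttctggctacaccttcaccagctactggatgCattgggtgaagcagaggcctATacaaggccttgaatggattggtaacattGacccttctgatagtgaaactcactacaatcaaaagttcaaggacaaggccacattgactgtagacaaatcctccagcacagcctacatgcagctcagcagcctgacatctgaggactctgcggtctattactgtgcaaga
Ighv1-61: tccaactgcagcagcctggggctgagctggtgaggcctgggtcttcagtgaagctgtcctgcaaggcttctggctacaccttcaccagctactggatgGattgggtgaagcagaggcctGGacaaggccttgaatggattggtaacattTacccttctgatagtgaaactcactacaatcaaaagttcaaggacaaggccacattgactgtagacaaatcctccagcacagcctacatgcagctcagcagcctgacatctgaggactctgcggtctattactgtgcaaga
Such likeness was common among the members. Compared over 290 bases with 180 Ighv symbols, 6 of the 91 had a neighbour within 5 differing bases and 27 within 10, with a median distance of 13 to the nearest one (range 2 to 116).

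The mix was more even in tumour lavage, and most of that followed from Ighv11-2. The inverse Simpson index, the number of equally abundant segments that would give the same chance that 2 counts come from the same segment, was 11.9 ± 3.16 in uninjected (SD, n = 4), 28.8 ± 7.71 in ID8 (SD, n = 4) and 23.9 ± 4.71 in ID8-FSHR (SD, n = 4), or 22.2 ± 3.85 without replicate 2 (SD, n = 3). The tumour libraries ranged from 18.5 to 36.6 and the uninjected ones from 8.47 to 15.4. With Ighv11-2 left out the values were 34.3 ± 2.27, 40.8 ± 3.04 and 38.7 ± 8.33 (SD, n = 4 each), where ID8 still lay above uninjected and ID8-FSHR overlapped it. The 10 leading segments of each library held 57.0 ± 2.95% of Ighv counts in uninjected, 45.3 ± 4.41% in ID8 and 47.9 ± 2.30% in ID8-FSHR (SD, n = 4 each). Evenness did not come with more segments: at an equal depth of 1384 Ighv counts, 92.5 ± 2.33 symbols were detected in uninjected, 88.8 ± 5.59 in ID8 and 86.6 ± 3.66 in ID8-FSHR (SD, n = 4 each). ID8 overlapped uninjected, and the highest ID8-FSHR library (90.04) lay just below the lowest uninjected one (90.4). All 91 members had counts in each uninjected library and 79 to 89 of them in the tumour libraries.

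Differences between libraries of the same tumour group were about as large as those between groups. The Bray-Curtis distance, the fraction of the mix that 2 libraries do not share, was 0.121 to 0.175 between uninjected libraries. It was 0.198 to 0.299 between ID8 libraries and 0.239 to 0.305 between ID8-FSHR libraries. Between ID8 and uninjected it was 0.1498 to 0.330 and between ID8-FSHR and uninjected 0.179 to 0.336. Without ID8-FSHR replicate 2 the median distance within ID8-FSHR was 0.286 and that to uninjected 0.242. Without Ighv11-2, the median distance from ID8 to uninjected was 0.223 and that within ID8 0.233. Tumour libraries had fewer Ighv counts, and the part of that in these distances was not tested.

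By family, the shift was a smaller Ighv11 and a larger Ighv1. The Ighv1 family, the largest and the one farthest from the D and J segments, has 42 members and made up 24.9 ± 1.91% of Ighv counts in uninjected, 34.3 ± 3.74% in ID8 and 32.1 ± 4.45% in ID8-FSHR (SD, n = 4 each). Every tumour library (27.5% to 38.9%) lay above every uninjected one (22.2% to 26.2%). As a share of Ighv counts other than Ighv11-2, it was 34.1 ± 1.92%, 39.3 ± 2.31% and 37.4 ± 3.21% (SD, n = 4 each). On that basis the lowest ID8 library (37.0%) barely exceeded the highest uninjected one (36.9%), and ID8-FSHR overlapped uninjected. Without ID8-FSHR replicate 2 the Ighv1 family made up 31.7 ± 5.35% of Ighv counts (SD, n = 3), again above all uninjected libraries. The Ighv14 family, with 4 members, was higher in all ID8-FSHR libraries (3.19% to 5.27%) than in uninjected ones (2.45% to 3.07%). As a share of Ighv counts other than Ighv11-2 it overlapped, at 3.46% to 6.36% against 3.44% to 4.30%. All other families overlapped between each tumour group and uninjected, although the Ighv6 family lay above uninjected in ID8-FSHR once replicate 2 was left out (6.64 ± 0.574%, SD, n = 3, against 5.16% in uninjected).

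Along the locus, the stretch nearest the D and J segments held a smaller share in ID8 and the farthest a larger one. The Ighv symbols span chr12:113572927-116010093, and the 60 Ighv symbols in the nearest of 3 equal stretches measured from the Ighj cluster held 55.6 ± 4.07% of Ighv counts in uninjected, 46.7 ± 2.91% in ID8 and 47.8 ± 4.07% in ID8-FSHR (SD, n = 4 each). Without Ighv11-2 the same stretch held 39.4 ± 2.08%, 38.7 ± 0.435% and 39.0 ± 1.35% (SD, n = 4 each). The farthest stretch went from 15.1 ± 1.73% to 20.2 ± 1.71% and 20.2 ± 4.96%, and without Ighv11-2 from 20.6 ± 2.09% to 23.1 ± 0.813% and 23.4 ± 4.34% (SD, n = 4 each). With Ighv11-2 counted, ID8 lay outside the uninjected range in both stretches (43.5% to 50.5% against 51.4% to 60.1% in the nearest, 17.8% to 21.6% against 12.7% to 16.7% in the farthest) and ID8-FSHR overlapped it, with and without replicate 2. With Ighv11-2 left out both tumour groups overlapped uninjected in both stretches.

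**Figure D4:**
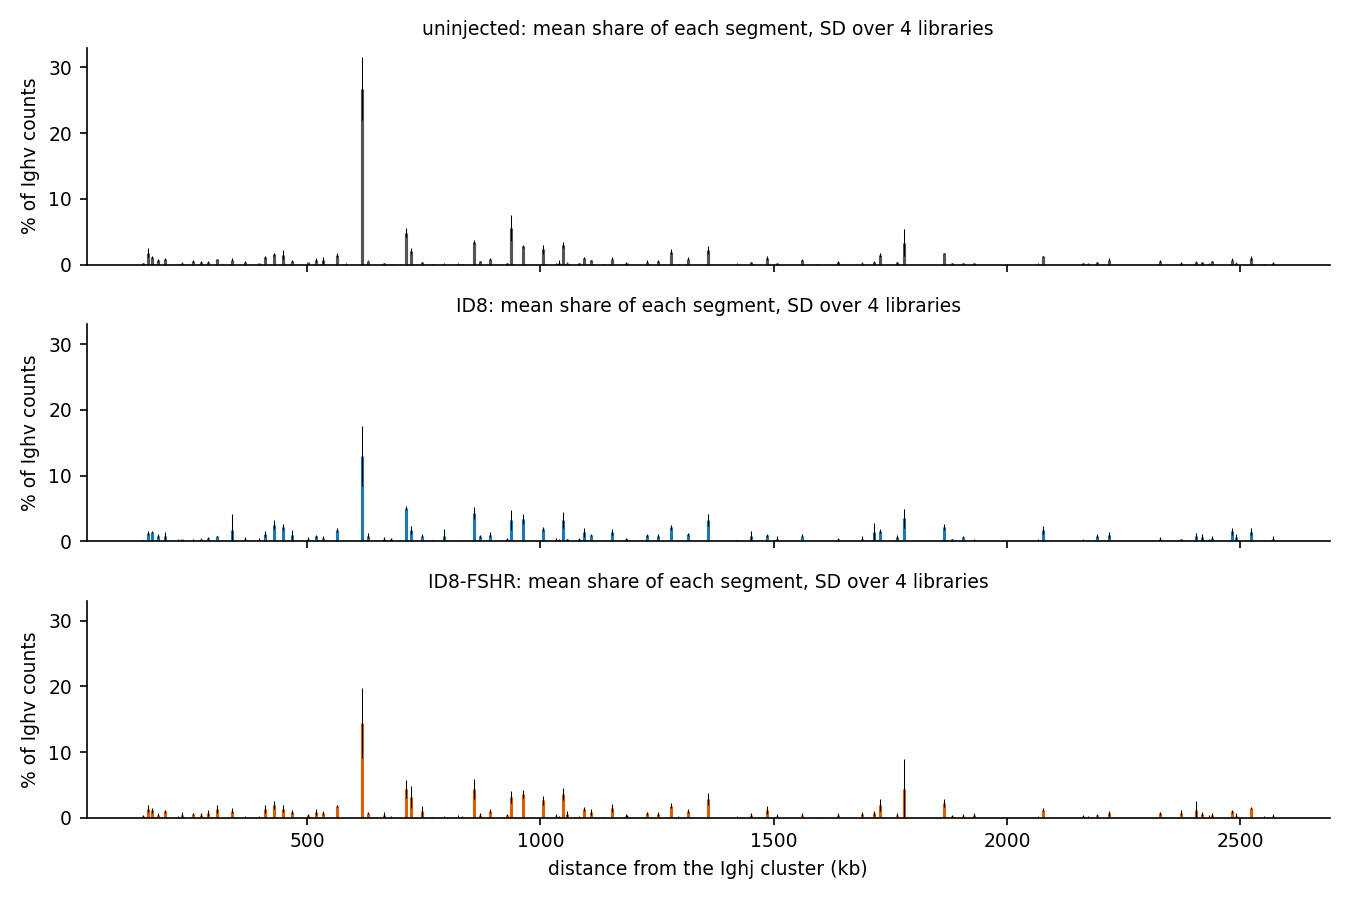
Mean share of Ighv counts of each of the 91 segments (vertical lines, with SD over 4 libraries in black) against its distance in kb from the Ighj cluster, for uninjected (top), ID8 (middle) and ID8-FSHR (bottom) on the same scale. The peak at 618 kb is Ighv11-2, which falls from 26.8% to 13.0% and 14.4%, while the rest of the profile keeps its outline.

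Of the 11 immunoglobulin constant regions tested, 1 was called relative to the Ighv total: Ighd, higher in both comparisons with uninjected. On that scale 95.3% of all genes were higher in ID8 and 95.4% in ID8-FSHR. The other 10 constant regions were not called. Ighd is the constant region of IgD, which mature follicular B cells carry at high level and B-1 cells at low level. Its level went from 171 ± 71.1 CPM in uninjected to 63.0 ± 17.9 in ID8 and 49.1 ± 14.1 in ID8-FSHR (SD, n = 4 each). The ID8 libraries (46.4 to 86.8 CPM) overlapped uninjected (86.1 to 253), and the ID8-FSHR libraries lay below. The log2 fold changes of -1.44 (SE 0.31, edgeR adjusted p = 0.00119) and -1.80 (SE 0.31, edgeR adjusted p = 0.000229) were smaller than those of Ighm (-3.01 and -3.14). Per 100 Ighm counts there were 2.57, 7.71, 4.83 and 3.46 Ighd counts in the uninjected libraries. The ID8 libraries had 12.7, 15.4, 16.7 and 9.72, and the ID8-FSHR libraries 15, 11.7, 8.87 and 10.8. All tumour libraries lay above all uninjected ones, and the ID8-FSHR mean without replicate 2 was 11.6 ± 3.13 (SD, n = 3). Within groups, how the ratio and the Ighv11-2 share went together differed. In ID8 the library with the most Ighd per Ighm had the lowest Ighv11-2 share, and in ID8-FSHR it had the highest. In uninjected the order was mostly inverse: ratios of 2.57, 3.46, 4.83 and 7.71 went with shares of 32.4%, 29.0%, 22.0% and 23.6%.

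**Figure D5:**
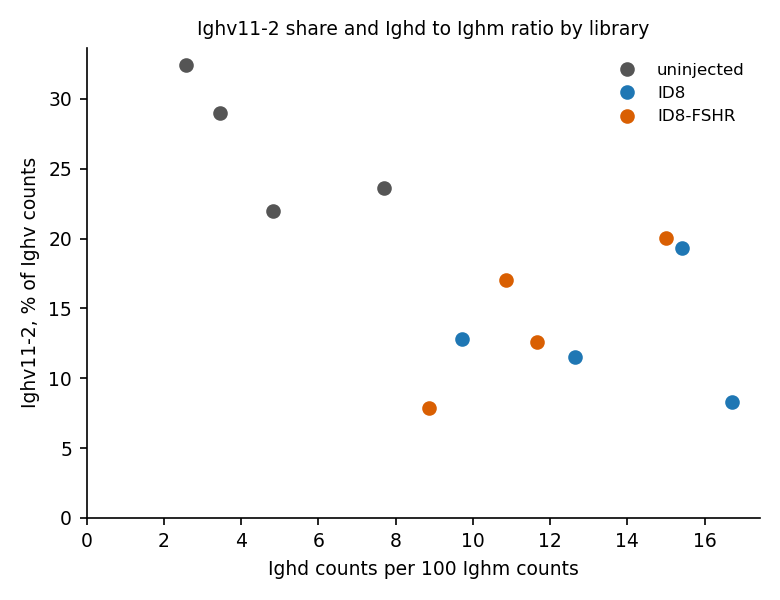
Share of Ighv11-2 among Ighv counts against Ighd counts per 100 Ighm counts, 1 point per library. The uninjected libraries lie at 2.57 to 7.71 Ighd per 100 Ighm and 22.0% to 32.4% Ighv11-2, and the tumour libraries at 8.87 to 16.7 and 7.84% to 20.02%.

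Of the other genes of the B lineage, 15 of 15 B cell identity genes were lower in ID8 and 14 of 15 in ID8-FSHR, with medians of -2.70 and -2.81. For this list and those below, 31.4% of all genes were lower and 32.7% higher in ID8 on the CPM scale. In ID8-FSHR 30.6% were lower and 33.9% higher. Fcer2a, the CD23 receptor of follicular B cells, and Cr2, the complement receptor CD21, were picked after their values were seen. They fell by 1.53 and 2.12 on the log2 scale in ID8 (edgeR adjusted p = 0.00314 and 2.42e-05). In ID8-FSHR they fell by 1.87 and 2.36 (edgeR adjusted p = 0.000830 and 1.05e-05). Cd72 and Blnk also fell less than Cr2 in both comparisons. Libraries overlapped for Fcer2a, at 8.42 to 17.1 CPM in ID8 and 14.7 to 52.3 in uninjected. Among 13 B-1 cell genes, 12 were lower and 1 higher in ID8, and 10 lower and 2 higher in ID8-FSHR. Il5ra, the receptor chain for interleukin 5 on which B-1 cells depend, fell by 3.68 in ID8 and by 3.85 in ID8-FSHR (edgeR adjusted p = 3.75e-08 and 2.91e-08). Relative to the Ighv total Il5ra was lower too, by log2 differences of -0.62 and -0.64 (edgeR adjusted p = 0.0292 and 0.0251). On that scale it was the 1 gene of the 13 called lower. For ID8, 8 were higher and 4 neither, and for ID8-FSHR 9 were higher and 3 neither. Bhlhe41, a transcription factor of B-1 cells picked after its values were seen, was among the higher ones. Its log2 differences were 0.62 and 0.68 (edgeR adjusted p = 0.0225 and 0.0127). Of all genes, 95.3% and 95.4% were higher on that scale. Of the 15 B cell identity genes, 5 and 6 were higher on it and 0 lower. Myof, higher in both comparisons, is a membrane repair gene that many other cells express. Immunoglobulin constant regions were lower for 10 of 11 tested in ID8 and 9 of 11 in ID8-FSHR. Of 9 plasma cell genes tested, 6 were lower in each comparison. In ID8 the 3 higher ones were Sdc1, Xbp1 and Derl3, a syndecan and 2 genes of the secretory pathway that are not specific to plasma cells.

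No segment was called different between ID8-FSHR and ID8 lavage. On the CPM scale 0 of 84 members differed by edgeR (11.6% of all genes did) and 0 by DESeq2, with 6 at an unadjusted p under 0.05 and a smallest edgeR adjusted p of 0.115. The median log2 difference was -0.20, and that of all genes -0.01. Relative to the Ighv total it was again 0 of 84 (3.87% of all genes), with 3 at an unadjusted p under 0.05. Those differences were wide: for Ighv1-74, the segment of smallest p on the CPM scale, the log2 difference was 1.31 (SE 0.51). Leaving out ID8-FSHR replicate 2 gave 1 call on the CPM scale, Ighv9-4, leaving out replicate 3 gave Ighv9-3 and leaving out replicate 4 gave Ighv1-81. With 1384 to 2999 Ighv counts per tumour library, a segment at 0 there could still hold up to 0.10% to 0.217% of the mix (the share that 3 counts would have). Among T cell genes 4 of 8 were higher in ID8-FSHR than in ID8, and among B-1 cell genes 4 of 13 were higher: Spn, Cd5, Ctla4 and Tox, which T cells also express. The part of T cells in those 4 was not tested. Without ID8-FSHR replicate 2 the counts were 0 of 8 and 3 of 13, and Spn did not pass (edgeR adjusted p = 0.0661).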

How the data were processed

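RNA was taken from 12 lavage samples (100 ng each), depleted of ribosomal RNA and sequenced, per the labels' protocols. The authors deposited whole-number counts per gene for all 12 libraries. Tools named in the submitters' processing notes are STAR 2.7.9a, featureCounts in Subread 1.6.4 and bcl2fastq 2.20, with build GRCm38.p6. The annotation release, the strand setting and the treatment of reads that match several genes are not given in those sources. All 185 Ighv identifiers matched GENCODE M21, which gave positions, exon lengths (347 to 480 bases for the members, median 353), biotypes and sequences.

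The members and gene lists were chosen with earlier results of these data known. Counts were fitted for all 3 groups together with edgeR 4.0.16 (R 4.3.3): genes passing filterByExpr (16915), TMM scaling, quasi-likelihood test, and Benjamini-Hochberg adjustment over all tested genes, called at 0.05. CPM values use the TMM-scaled library sizes. Each SE is the absolute log2 fold change divided by the square root of the F statistic of its test. A second fit set each library's size to its Ighv count total, so that its fold changes are changes in share of the Ighv mix. Shares, ratios, the inverse Simpson index and Bray-Curtis distances were computed from the counts. Wilson 95% intervals are given for shares of a single library. The text names the 12 segments of highest mean share, segments past the threshold in share whose libraries did not overlap, segments known from the literature and those at the count limit. Other names were chosen after their values were seen and are stated as such or belong to counts given in full. No 2 libraries of a group were duplicates by a chi-square test of their counts (15.3 to 262 per gene). The fits were tested on simulated counts with 200 changed genes per comparison and the same spread for every gene. They recovered 86% to 93% of 2-fold changes and called 6 to 17 unchanged genes. The spread was a set value not estimated from the data, so these rates do not give the power for the Ighv members. Unlike in the real share fits against uninjected, few genes changed there, so the simulation does not check the calls in share. Alternatives were other filters, DESeq2 1.42.0, other scalings, a replicate block, the 2 compared groups alone and leaving out each library.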

Additional observations from a re-analysis of the deposited data

Results flagged for a closer look

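In 81 groups of 4 libraries (shares of the named segments, and the Ighv level, its ratio to Ighm, Ighd per Ighm and the inverse Simpson index), the highest or lowest library was tested for distance from the other 3. That test flags about 1 in 20 groups by chance. It flagged 4, about as many as this rate gives for 81 groups. Ighv3-6 made up 3.95% of Ighv counts in 1 uninjected library and 3.24% to 3.32% in the others. Ighv6-6 made up 3.68% in 1 ID8-FSHR library and 2.2% to 2.44% in the others. Ighv1-59 made up 0% in 1 ID8-FSHR library (0 of 1384 Ighv counts, which allows a share of up to 0.217%) and 0.3995% to 0.455% in the others. In 1 uninjected library Ighv1-59 made up 0.0989% and in the others 0.256% to 0.285%.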

How the results depend on the processing

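The number of members lower on the CPM scale was 78 for ID8 and 82 for ID8-FSHR. A filter of 1 CPM in at least 4 libraries left 47 members to test and made these 45 and 47. Leaving out 1 library gave 75 to 86 and 78 to 88, and 0 to 1 between ID8-FSHR and ID8. In share of the Ighv total, where 9 and 6 members were called, leaving out 1 library gave 6 to 10 and 4 to 7, and 0 to 1 between the tumour groups. Fitting only the 2 compared groups gave 13 for ID8 and 6 for ID8-FSHR. Using the Ighv total for Ighv genes only, a setting not planned beforehand, gave 11 and 5. The stricter filter gave 3 for ID8-FSHR. With the Ighv total less its 3 leading segments, 5 were called for ID8. Ighv7-4 was the 1 call between the tumour groups in that fit, with no filter, and with a median of ratios over the members. An adjusted p under 0.001, added after seeing the data, left 1 and 0. Ighv11-2 was called in share under all alternatives but that limit in ID8-FSHR. Most same-numbered libraries of different groups did not vary together: 2 of 12 pairs had a correlation above 0.1 (range -0.22 to 0.35). Both were between ID8-FSHR and ID8, at 0.35 for replicate 2 and 0.20 for replicate 3. In 3 of the 12 pairs, these 2 among them, the library correlated best with its own number. With a replicate block the counts were 81, 84 and 0 in CPM, and 5 and 4 in share. The share calls kept were Ighv1-52, Ighv1-59, Ighv11-2, Ighv12-3 and Ighv14-4 in ID8 and Ighv1-2, Ighv1-74, Ighv11-2 and Ighv14-4 in ID8-FSHR. All other share calls of the main fit ended with the block, among them Ighv1-80 in ID8 and Ighv12-3 in ID8-FSHR (edgeR adjusted p = 0.0548 and 0.0556). Of the named segments, Ighv3-5, Ighv2-4 and Ighv3-3 were not tested. For the others no alternative reversed the direction of a call. Depth limits the tumour libraries, where many segments have under 20 counts.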

Other observations

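Segments annotated as pseudogenes carried a small share of Ighv counts in each group: 0.702 ± 0.211% in uninjected, 0.780 ± 0.359% in ID8 and 0.463 ± 0.167% in ID8-FSHR (SD, n = 4 each), with overlap between all groups. Igha, the constant region of IgA, was scarce in all groups and lower in tumour lavage (edgeR adjusted p = 0.000571 in ID8 and 0.000311 in ID8-FSHR), with 3.33 ± 0.752 CPM in uninjected, 0.602 ± 0.263 in ID8 and 0.513 ± 0.346 in ID8-FSHR (SD, n = 4 each).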
